A study of Mus musculus with 72 samples.

Results

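The 8 genes described here encode a chloride importer and other proteins of cell volume control, and were measured in mouse blood. They were Slc12a2, Slc5a3, Slc6a6, Wnk1, Wnk4, Stk39, Oxsr1 and Nfat5, taken from 18194 genes that had a probe set annotated to 1 symbol. Slc12a2 was chosen because it differed from controls after exposure to lead (Pb), and the other 7 were added by function. The choice was made with earlier results of these data known. The 8 genes had 24 probe sets, and each gene is represented by the one with the highest mean over all arrays. All 8 were among the 12589 genes tested, because each exceeded 4.14 on the log2 scale, the median over every array and probe set, in at least 7 arrays. On GRCm38.p6 they lie at chr18:57878512-57946821 (Slc12a2), chr16:92058322-92087473 (Slc5a3), chr6:91684048-91759063 (Slc6a6), chr6:119923969-120038695 (Wnk1), chr11:101260537-101277409 (Wnk4), chr2:68210445-68472108 (Stk39), chr9:119238432-119322684 (Oxsr1) and chr8:107293435-107379517 (Nfat5).

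Whole blood of female Balb/c mice, given as 9 weeks old for every array, was measured on 72 oligonucleotide arrays. The drinking water held lead acetate trihydrate at 0, 5 or 50 µg/mL for 2 weeks, and all mice then drank Pb-free water for 2 weeks. After exposure 7 control, 15 low-dose (5 µg/mL) and 15 high-dose (50 µg/mL) arrays were measured, and after recovery 7 control, 15 low-dose and 13 high-dose arrays. Per the labels' protocols, the first collection bled only some of the control mice but all exposed mice. The labels do not say whether the recovery controls were the same animals. They name no genotype, allele or other agent. The number of arrays per group limits the precision. Of the marker genes listed for blood cell types, all 8 of platelets, 7 of 8 each of B cells, T cells and neutrophils, 6 of 8 of erythroid cells and 5 of 7 each of monocytes and NK cells were measured above the same limit.

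Animal cells regain volume after shrinking by taking up ions, and later by gathering organic osmolytes. Slc12a2, also called NKCC1, carries sodium, potassium and chloride into the cell together. The WNK kinases sense chloride and osmotic stress and switch on the kinases SPAK (gene Stk39) and OSR1 (gene Oxsr1), which phosphorylate and activate NKCC1. Nfat5, also called TonEBP, is the transcription factor of the slower arm, and turns on the myo-inositol carrier Slc5a3 and the taurine carrier Slc6a6. Whole blood holds red cells, platelets and white cells, and the arrays do not separate them.

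RefSeq promoters of build GRCm38.p6 were matched by symbol for 6 of the 8 genes. Slc5a3 and Wnk4 are shown, because the results below turn on them and because they differ at the letters TGGAAA, the core of the tonicity element bound by Nfat5, which are in capitals. The Slc5a3 stretch is chr16:92058072-92058321 (plus strand) and the Wnk4 stretch is chr11:101260317-101260536 (plus strand). Each ends at the base before the annotated gene.
Slc5a3: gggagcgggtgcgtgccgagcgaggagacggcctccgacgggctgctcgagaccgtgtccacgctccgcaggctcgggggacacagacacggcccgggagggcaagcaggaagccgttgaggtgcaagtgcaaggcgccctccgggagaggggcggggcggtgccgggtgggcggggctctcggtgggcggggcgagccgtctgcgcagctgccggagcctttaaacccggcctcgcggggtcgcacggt
Wnk4: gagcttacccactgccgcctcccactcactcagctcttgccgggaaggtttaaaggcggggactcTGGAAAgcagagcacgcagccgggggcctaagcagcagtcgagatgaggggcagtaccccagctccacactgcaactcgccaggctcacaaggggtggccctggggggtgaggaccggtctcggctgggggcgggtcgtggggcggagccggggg

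TGGAAA was searched on both strands in the 250 bases before each annotated promoter's start. These windows could run into the annotated gene. Before the gene lay all 250 bases for Slc5a3, 220 for Wnk4 and 215 for Nfat5. For Wnk1 it was 210, for Stk39 123 and for Oxsr1 0, so the Oxsr1 window lay wholly inside the gene. Within these windows TGGAAA was present in Wnk4, at chr11:101260382-101260387, and in Stk39, and absent from Slc5a3, Wnk1, Oxsr1 and Nfat5. Of 32851 mouse promoters, 18.6% held it, so a match is a description and not a bound site. Slc5a3 overlaps Mrps6, a mitochondrial ribosomal protein gene whose annotation begins at base 92058336 of the same chromosome. Values of Mrps6 are therefore given beside those of Slc5a3.

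Slc12a2 stood apart in 1 of the 6 groups, the controls of the exposure collection. After exposure its log2 level in controls was lowest 5.42, median 5.72 and highest 6.06. At the low dose it was 6.28, 6.49 and 6.71, and at the high dose 5.93, 6.32 and 6.76. All 15 low-dose arrays and 13 of 15 at the high dose exceeded each of the 7 controls. The mean was 5.75 ± 0.24 (SD, n = 7) in controls, 6.48 ± 0.14 (SD, n = 15) at the low dose and 6.30 ± 0.22 (SD, n = 15) at the high dose. The differences from controls were 0.73 ± 0.11 (SE) at the low dose and 0.55 ± 0.11 at the high dose. Both comparisons share their controls and chose the gene, so they are given without a test. Over all 12589 genes, limma called 1.3% at the low dose (1.11% higher, 0.191% lower) and 0.0238% at the high dose, all of them higher, at an adjusted p under 0.05.

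After recovery the 3 groups of Slc12a2 overlapped almost wholly. In controls the lowest, median and highest log2 levels were 5.85, 6.47 and 6.85. At the low dose they were 5.90, 6.17 and 6.63, and at the high dose 5.85, 6.25 and 6.71. No treated array lay beyond the range of the controls in the direction of the difference. The low dose differed from controls by -0.17 ± 0.11 (95% interval -0.38 to 0.04, limma, adjusted p = 1) and the high dose by -0.15 ± 0.11 (-0.36 to 0.07, adjusted p = 0.606). Exact two-sided permutation tests of the same differences gave p = 0.174 over 170544 splits and p = 0.318 over 77520 splits. The high dose minus the low dose was 0.02 ± 0.09 (-0.16 to 0.19, adjusted p = 0.936, permutation test with 100000 resamples p = 0.849). The intervals against controls lie below the differences seen after exposure at either dose. Those exposure differences chose the gene, so no test compared the collections.

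Between the collections the control level moved up and the low-dose level down. The recovery controls, at 6.40 ± 0.33 (SD, n = 7), were higher than the exposure controls by 0.64 ± 0.12, and 6 of 7 lay above every exposure control. Low-dose arrays differed by -0.25 ± 0.08, with 9 of 15 recovery arrays below every exposure array, and high-dose arrays differed by -0.05 ± 0.09. Each of these differences rests on exposure arrays that chose the gene, so they are given without a test. In order, the 6 group means of Slc12a2 were 5.75 in exposure controls, 6.23 in low-dose recovery, 6.25 in high-dose recovery, 6.30 in high-dose exposure, 6.40 in recovery controls and 6.48 in low-dose exposure. Neighbours above the first differed by less than their SDs. The dose effect after recovery minus that after exposure was -0.90 for the low dose and -0.70 for the high dose, as descriptions, since they contain the values that chose the gene.

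**Figure D1:**
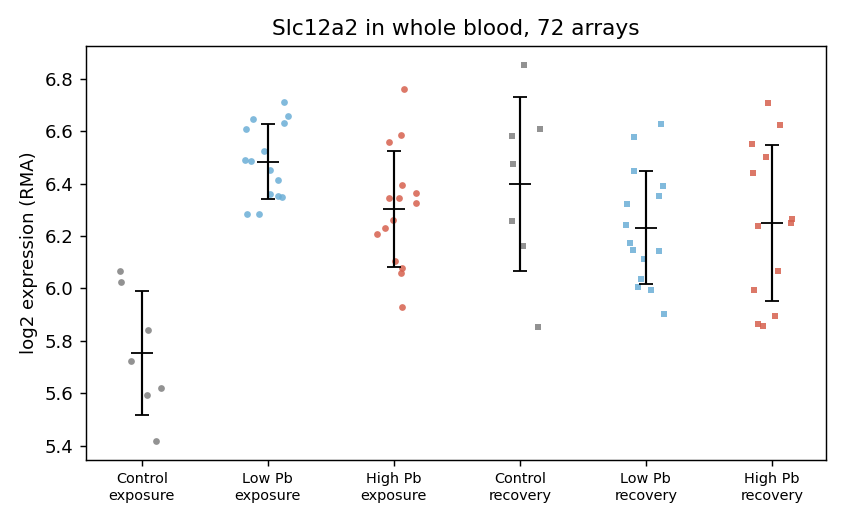
Log2 expression of Slc12a2 (vertical axis, RMA values) on the 72 arrays in the 6 groups; points are arrays, black bars the mean and SD. The exposure controls sit between 5.42 and 6.06, below all 15 low-dose exposure arrays, and the recovery controls reach 6.85.

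Markers of blood cell types moved with part of this pattern. The mean of 5 measured monocyte markers of 7 listed ranged from 6.90 to 7.83 in exposure controls (mean 7.35), from 7.59 to 8.09 at the low dose (7.83) and from 7.17 to 7.68 at the high dose (7.44). After recovery its group means were 7.98, 8.02 and 7.84. With the B cell, T cell, monocyte, neutrophil, platelet and erythroid marker means as covariates, the exposure difference of Slc12a2 was 0.35 ± 0.10 at the low dose and 0.50 at the high dose, and that between the control groups was 0.21. In the same fit the high dose minus the low dose turned to 0.15, from -0.18 ± 0.08. Fewer cells of a type and less RNA per cell cannot be told apart in whole blood. Slc12a2 had 2 further probe sets, designed on the same sequence record, with mean levels of 3.75 and 2.46. They exceeded 4.14 in 4 arrays and 0 arrays, and their exposure differences were 0.25 and 0.20 at the low dose and 0.21 and 0.26 at the high dose. Both were higher in recovery than in exposure controls, by 0.25 and 0.38. Recovery minus exposure was -0.10 ± 0.09 and 0.26 ± 0.10 at the low dose, and -0.01 ± 0.09 and 0.14 ± 0.10 at the high dose. The dimmer probe set thus went against the low-dose fall of the main one.

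Slc5a3, the myo-inositol carrier, showed the largest differences of the 7 other genes, between the exposure doses and between the collections. After exposure its lowest, median and highest log2 levels were 4.60, 4.91 and 5.06 in controls and 4.43, 4.68 and 5.06 at the low dose. At the high dose they were 4.80, 5.20 and 6.16. Of the high-dose arrays 12 of 15 lay above every low-dose array, and the spread was widest there (5.36 ± 0.42, SD, n = 15). Slc5a3 at the high dose exceeded the low dose by 0.65 ± 0.09 (limma, adjusted p = 8.71e-07). Against controls the high dose differed by 0.49 ± 0.12 and the low dose by -0.16 ± 0.12, both given without a test. Mrps6, which overlaps it, also differed between the doses, by 0.24 ± 0.08 (adjusted p = 0.0207).

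After recovery Slc5a3 lay lower in all 3 groups, near the limit of 4.14, and no dose difference passed the threshold. Its lowest, median and highest levels were 3.86, 4.19 and 4.54 in controls, 3.87, 4.22 and 4.55 at the low dose and 3.67, 4.11 and 4.35 at the high dose. All 13 high-dose recovery arrays lay below all 15 high-dose exposure arrays, and all 7 recovery controls below all 7 exposure controls. Slc5a3 fell by 1.27 ± 0.10 at the high dose (adjusted p = 2.92e-17), by 0.66 ± 0.14 in controls (adjusted p = 9.67e-05) and by 0.48 ± 0.09 at the low dose (adjusted p = 2.45e-05). Only 5 of 13 high-dose, 4 of 7 control and 9 of 15 low-dose recovery arrays exceeded 4.14, against all exposure arrays, so the lower ends of these falls are dim values. The high-dose difference from controls after recovery minus that after exposure was -0.61, given without a test. Mrps6 changed by -0.08 ± 0.08, -0.06 ± 0.11 and 0.14 ± 0.08 in the same order, none past the threshold. Between recovery groups the high dose minus the low dose was -0.15 ± 0.10 (-0.34 to 0.04, adjusted p = 0.476). The differences were -0.12 ± 0.12 for the high dose (-0.36 to 0.12, adjusted p = 0.698) and 0.03 ± 0.12 for the low dose (-0.21 to 0.26, adjusted p = 1) against controls. The other probe sets of Slc5a3, with means of 3.30 and 2.84, lay below 4.14 on every array. They gave 0.19 and -0.03 between the exposure doses, and -0.21 and -0.03 for high-dose recovery minus exposure.

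Cell type markers moved with Slc5a3 across the groups. The mean of 7 measured B cell markers was 8.24, 8.69 and 7.997 after exposure and 9.27, 9.28 and 9.00 after recovery, in the order control, low dose, high dose, and that of 6 erythroid markers was 9.19, 9.22 and 9.39 and then 8.68, 8.71 and 8.97. Over the 72 arrays, which share their normalization, Slc5a3 correlated with the B cell, monocyte and erythroid means at r = -0.740, -0.601 and 0.518. With group means removed these were -0.0992, -0.0139 and -0.108. The neutrophil mean gave r = -0.505 over all arrays and -0.311 with group means removed, the largest in size for Slc5a3 in that setting. With the marker means as covariates Slc5a3 differed by 0.56 ± 0.12 between the exposure doses (adjusted p = 0.00333). Between the collections it then differed by -1.21 ± 0.13 at the high dose (6.05e-10), -0.58 ± 0.18 in controls (0.0189) and -0.47 ± 0.11 at the low dose (0.00063).

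Slc6a6, the taurine carrier, differed little, and its probe sets disagreed. Its median log2 level ran from 8.37 at the high dose after exposure to 8.74 in recovery controls. The lowest array was 7.80, at the high dose after exposure, and the highest was 8.96, at the low dose after recovery. After exposure Slc6a6 at the high dose lay below the low dose (-0.21 ± 0.07, adjusted p = 0.0189), and without high-dose exposure replicate 13 it missed the threshold (-0.17, adjusted p = 0.0536). It rose in high-dose arrays between the collections by 0.23 ± 0.07 (adjusted p = 0.00545), while 3 of 13 recovery arrays lay above all exposure arrays. In controls the difference was 0.21 ± 0.10 (adjusted p = 0.0776), and it passed without recovery control replicate 3 (0.30, adjusted p = 0.0137) or 4 (0.25, 0.0467). A second Slc6a6 probe set, above 4.14 on all 72 arrays, was lower after recovery in each dose group: by -0.43 ± 0.16 in controls, -0.24 ± 0.11 at the low dose and -0.46 ± 0.11 at the high dose. Over the 72 arrays the main probe set correlated with the monocyte marker mean at r = 0.675, and within groups at r = 0.523. With the marker means as covariates its high-dose difference between collections was -0.003 (adjusted p = 0.98). In that fit high minus low dose after exposure was -0.07 ± 0.07 (adjusted p = 0.602). The call between the exposure doses was lost in 3 of 12 alternatives that kept this probe set and all arrays. The direction of Slc6a6 between the collections depended on the probe set.

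**Figure D2:**
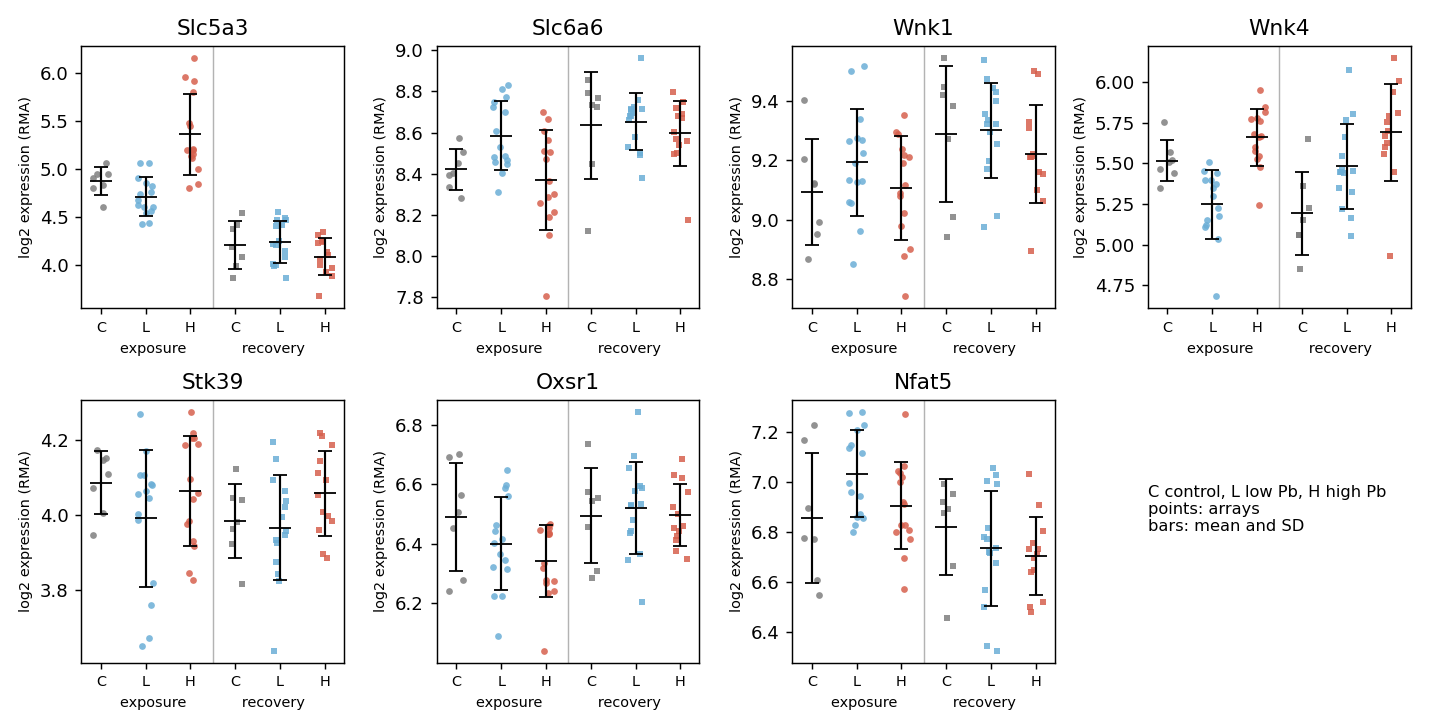
Log2 expression (vertical axes, RMA values, scaled per gene) of the other 7 genes in control (C), low-dose (L) and high-dose (H) arrays after exposure and after recovery; points are arrays, bars the mean and SD. Slc5a3 at the high dose reaches 6.16 after exposure and at most 4.35 after recovery, and Wnk4 is highest in the high-dose groups.

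Among the WNK kinases, Wnk4 passed the threshold in a comparison of doses at each collection, and Wnk1 at neither. Wnk4 has a single probe set. After exposure its lowest, median and highest log2 levels were 5.35, 5.51 and 5.76 in controls, 4.68, 5.30 and 5.51 at the low dose and 5.25, 5.67 and 5.95 at the high dose. After recovery they were 4.85, 5.15 and 5.65 in controls, 5.05, 5.45 and 6.07 at the low dose and 4.93, 5.70 and 6.15 at the high dose. The high-dose arrays were the highest group at both collections, but the groups overlapped. After exposure Wnk4 at the high dose exceeded the low dose by 0.41 ± 0.08 (adjusted p = 0.000308), with 13 of 15 arrays above every low-dose array. Against controls the low dose differed by -0.27 ± 0.10 and the high dose by 0.14 ± 0.10, given without a test, so the levels did not follow the order of dose. After recovery it was higher at the high dose than in controls by 0.50 ± 0.11 (0.28 to 0.71, adjusted p = 0.0258), with 8 of 13 arrays above every control. The low-dose difference from the same controls was 0.29 ± 0.10 (adjusted p = 1) and the high dose minus the low dose was 0.21 ± 0.09 (adjusted p = 0.299).

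Between the collections Wnk4 fell in controls by 0.32 ± 0.12 (adjusted p = 0.0317) and rose at the low dose by 0.23 ± 0.08 (adjusted p = 0.0181). At the high dose the difference was 0.03 ± 0.09. The fall in controls missed the threshold without exposure control replicate 2 (-0.28, adjusted p = 0.0768) or recovery control replicate 3, 5 or 7 (-0.26, -0.30 and -0.30; 0.0987, 0.0639 and 0.0629). The low-dose rise missed it without low-dose recovery replicate 4 (0.19, 0.0508). The high-dose recovery difference kept its size without any single array (0.44 to 0.57), but its adjusted p crossed the threshold without 6 of 20. Without recovery control replicate 3, 5 or 7 the difference was 0.44, 0.47 or 0.47 (adjusted p = 0.215, 0.117 or 0.0661). Without high-dose recovery replicate 5, 9 or 12 it was 0.48, 0.47 or 0.46 (0.0511, 0.0512 or 0.0714). It also missed the threshold when only both groups were fitted (0.0814), with the 3' minus 5' covariates (0.052) and with the replicate number as a block (0.103). Over 12 alternatives other than leaving out an array, the difference ranged from 0.06 to 0.53.

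Platelet markers varied with Wnk4 from array to array. All 8 listed markers were measured, among them Pf4, Itga2b and Gp9, and their mean was 10.70, 10.44 and 10.69 after exposure and 10.45, 10.65 and 10.78 after recovery, in the order control, low dose, high dose. After exposure the Wnk4 means of the controls and the high dose were 5.52 and 5.66. That difference was not tested, and its 95% interval ran from -0.06 to 0.35. Between the control groups 7 of 8 markers had the lower mean after recovery, and Itga2b the higher (10.76 and 10.92). The range of the mean was 10.19 to 10.73 in recovery controls and 10.25 to 10.98 in high-dose recovery arrays. Over the 72 arrays Wnk4 correlated with this mean at Pearson's r = 0.891 and Spearman's rho = 0.882, and at r = 0.869 without the 2 arrays farthest from the median. With each group's mean removed r was 0.851. Of 64 correlations of a gene with a marker mean this was the highest in size, and it is given without a p because it was picked for that. The points share arrays and normalization. With the 6 marker means as covariates, Wnk4 differed by 0.06 ± 0.07 between high-dose recovery and controls (adjusted p = 0.977). In that fit the exposure doses differed by 0.08 ± 0.06 (adjusted p = 0.465), and the difference between control groups turned to 0.09 ± 0.09.

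Wnk1, the widely expressed WNK kinase, passed the threshold in none of its 7 tested comparisons. Its group medians lay between 9.12 and 9.38, and its differences ran from -0.09 between the exposure doses to 0.19 between the control groups (adjusted p = 0.0996). That last difference passed without recovery control replicate 4 (0.25, adjusted p = 0.0317) or 1 (0.24, 0.0462), or exposure control replicate 4 (0.25, 0.0444).

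The kinases that act directly on Slc12a2 differed by at most 0.15 in size in their tested comparisons. Stk39, encoding SPAK, was dim: its main probe set exceeded 4.14 in 17 of 72 arrays, and its group medians lay between 3.96 and 4.11. None of its 7 tested differences passed the threshold, and they ran from -0.10 to 0.09. Oxsr1, encoding OSR1, was measured by 1 probe set, with group medians between 6.33 and 6.55. It rose at the high dose between the collections, by 0.15 ± 0.06 (adjusted p = 0.0183). Of the recovery arrays 6 of 13 lay above all exposure arrays, and the difference was 0.01 with the marker means as covariates (adjusted p = 0.945). In the other 6 tested comparisons of Oxsr1 the differences ran from -0.06 to 0.12, none past the threshold. The highest, at the low dose between the collections (adjusted p = 0.0609), passed without any 1 of low-dose exposure replicates 1, 3, 4 and 6 or low-dose recovery replicates 2, 10 and 14, with values of 0.13 to 0.14 and adjusted p of 0.0236 to 0.0418.

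**Figure D3:**
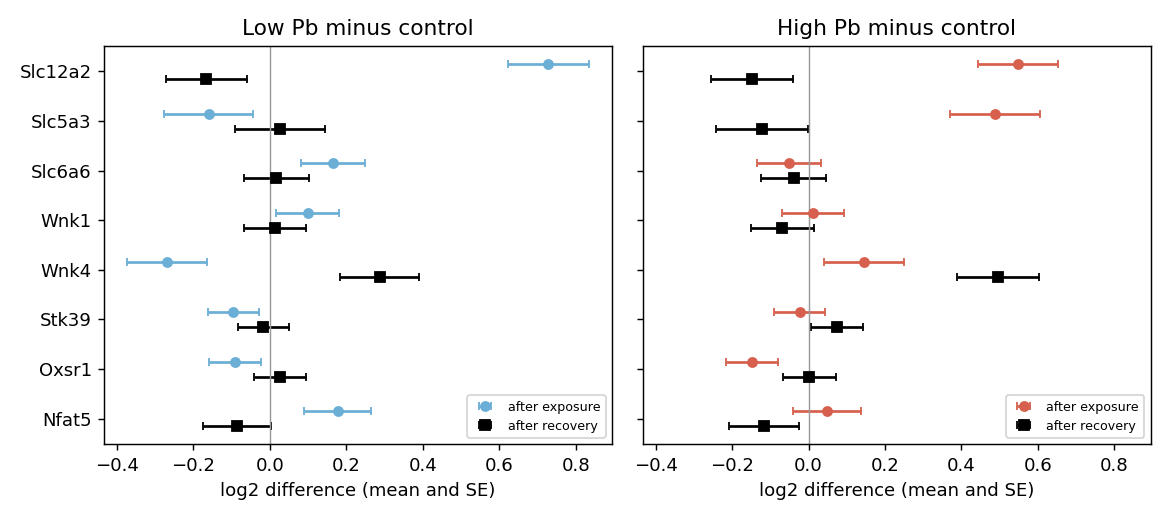
Log2 difference of each Pb dose from the controls of the same collection (horizontal axis, mean and SE) for the 8 genes, after exposure (coloured circles, described without a test) and after recovery (black squares). Slc12a2 lies at 0.73 and 0.55 after exposure and at -0.17 and -0.15 after recovery, and Wnk4 at 0.50 at the high dose after recovery.

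Nfat5, the osmotic stress transcription factor, changed between the collections, in opposite directions by its probe sets. Its main probe set had group medians of 6.78, 6.99 and 6.91 after exposure and 6.89, 6.74 and 6.71 after recovery. It fell by 0.30 ± 0.07 at the low dose (adjusted p = 0.000361), with 10 of 15 recovery arrays below every exposure array, and by 0.20 ± 0.07 at the high dose (adjusted p = 0.0195). In controls it differed by -0.04 ± 0.10. A second probe set, above 4.14 on all 72 arrays, was higher after recovery by 0.97 ± 0.14 in controls, 0.61 ± 0.10 at the low dose and 0.90 ± 0.10 at the high dose. A further one, also above 4.14 on all arrays, was higher by 0.83 ± 0.12, 0.80 ± 0.08 and 0.70 ± 0.08. The probe sets were designed on different sequence records. The direction of Nfat5 between the collections thus depended on the probe set, and the cause was not tested. Between the exposure doses, high minus low was -0.13 ± 0.07 by the main probe set (limma, adjusted p = 0.184). It was -0.37 ± 0.10 by the second (limma, adjusted p = 0.00639) and -0.09 ± 0.08 by the further one.

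Measures of RNA quality moved with the collection too. The log2 difference between the 3' and 5' control probe sets had group means of 0.53 to 0.56 for Gapdh after exposure and 0.84 to 0.93 after recovery, and 0.37 to 0.48 against 0.65 to 0.68 for Actb. After exposure the 18S ribosomal RNA controls had group means of 7.00, 7.00 and 7.79, in the order control, low dose, high dose. After recovery their group means were 6.33 to 6.43. The hybridisation controls of the arrays had exposure means of 10.14, 10.09 and 10.51 in the same order. Slc5a3, Wnk4 and Slc6a6 were thus called between exposure doses whose means of these controls differed too. The collection and the processing of its arrays cannot be told apart. With the 3' minus 5' differences as covariates, the main Nfat5 probe set differed by -0.19 at the low dose (adjusted p = 0.109) and by -0.12 at the high dose (adjusted p = 0.238).

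**Figure D4:**
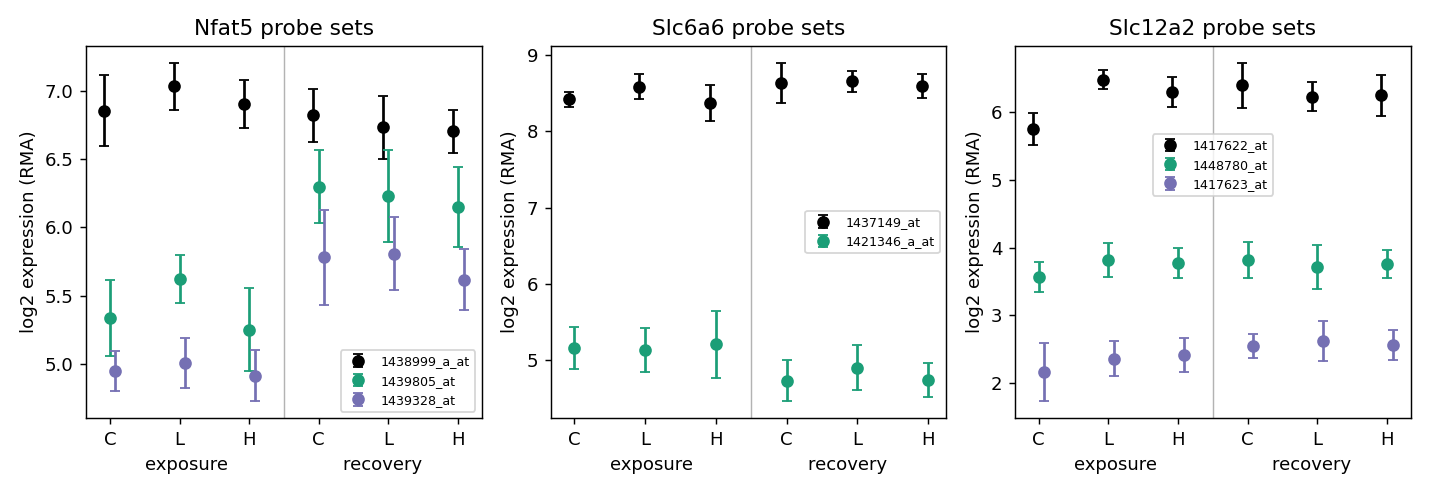
Mean and SD of log2 expression (vertical axes, RMA values) by group for the probe sets of Nfat5, Slc6a6 and Slc12a2, in control (C), low-dose (L) and high-dose (H) arrays after exposure and recovery. The other 2 Nfat5 probe sets lie between 4.91 and 5.62 after exposure and between 5.62 and 6.30 after recovery, while the first lies between 6.70 and 7.03 throughout.

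Counted together by their main probe sets, 3 of the 7 genes other than Slc12a2 differed between the exposure doses (42.9%, against 18.7% of all tested genes, 6.04% higher and 12.6% lower). Slc5a3 and Wnk4 were higher and Slc6a6 lower at the high dose. With the marker means as covariates only 1 of the 7 passed, Slc5a3. The genes were chosen with earlier results of these data known, so their shares beside the background are descriptions. After recovery 0 of 8 passed for the low dose against controls, where limma called 0% of all genes and 295 had an unadjusted p under 0.05. For the high dose against controls 1 of 8 passed, Wnk4 (12.5%, against 0.429% of all genes, 0.405% higher and 0.0238% lower). For the high against the low dose 0 of 8 passed, again 0% of all genes, with 1765 at an unadjusted p under 0.05. Among the 8, only Wnk4 had an unadjusted p under 0.05 in these 3 recovery comparisons. Between the collections 2 of 7 fell in controls (28.6%, against 36.1% of all genes, 22.5% higher and 13.6% lower). At the low dose 1 of 7 rose and 2 fell (42.9%, against 44.1%, 26.2% higher and 17.9% lower), and at the high dose 2 rose and 2 fell (57.1%, against 49.2%, 29.4% higher and 19.8% lower). These last shares lie near the background.

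Of 44 related genes in 4 lists, 31 were tested, and 0 passed in any recovery comparison between doses. Between the exposure doses 4 exceeded the low dose at the high dose and 2 lay below it (19.4%, near the background). Among volume-regulatory channels 3 of 15 were higher: Lrrc8c, a subunit of the volume-regulated anion channel, by 0.25 (adjusted p = 0.000517), the cation channel Trpv4 by 0.25 (0.0267) and the calcium-activated potassium channel Kcnn4 by 0.41 (0.0352). Of 4 osmolyte and Nfat5 target genes, the chaperone Hspa4l was higher, by 0.29 (0.0202). Of 8 WNK pathway partners the kinase Sgk3 was lower by 0.25 (-0.25, adjusted p = 0.00171) and Cab39l, an adaptor of SPAK and OSR1, by 0.18 (-0.18, 0.0214). None of 4 tested cation-chloride cotransporters passed. Median differences of the lists were -0.04, 0.11, -0.13 and -0.06 in that order, against -0.03 over all genes.

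Between the collections 35.5% of the 31 related genes passed in controls (36.1% of all tested genes), 67.7% at the low dose (44.1%) and 58.1% at the high dose (49.2%), so in controls the share lay at the background. In controls 7 rose and 4 fell, at the low dose 12 rose and 9 fell, and at the high dose 11 rose and 7 fell. Of the cotransporters, the potassium chloride exporter Slc12a7 rose in all 3 dose groups, by 0.35 in controls (adjusted p = 0.018), 0.25 at the low dose (0.0118) and 0.36 at the high dose (0.000364). Its relative Slc12a9 rose by 0.12 at the low dose (0.0336) and by 0.22 at the high dose (0.000126), with 0.04 in controls (0.67). The anion exchanger Slc4a2 rose by 0.57, 0.39 and 0.45 (adjusted p = 3.39e-05, 1.82e-05 and 1.53e-06) and the cation channel Trpv2 by 0.38, 0.29 and 0.36 (0.0018, 0.00036 and 2.05e-05). The mechanically gated channel Piezo1 rose by 0.30, 0.20 and 0.27 (0.0059, 0.00465 and 0.000367). The chloride transporter Clcn3 rose by 0.51 at the low dose (1.06e-06) and 0.33 at the high dose (0.00109), with 0.04 in controls (0.834). The water channel Aqp9, named after its values were seen, fell by 0.42, 0.38 and 0.40 (0.0289, 0.00305 and 0.00209). Of the WNK partners, Klhl2, which marks WNK kinases for degradation, fell by 0.44, 0.43 and 0.61 (adjusted p = 0.0135, 0.000262 and 1.24e-06). Sgk1, a kinase induced by cell shrinkage, fell by 0.33, 0.50 and 0.44 (0.035, 2.47e-06 and 3.59e-05). Wnk2 fell by 0.29, 0.24 and 0.28 (0.0115, 0.00184 and 0.000326), and Cab39l rose by 0.29, 0.17 and 0.28 (0.0041, 0.00966 and 6.23e-05). Sgk3 fell at the low dose by 0.25 (0.000382), with -0.11 in controls (0.325) and -0.13 at the high dose (0.063). The amino acid carrier Slc38a2, an osmolyte gene, fell by 0.24 at both doses (0.00321 and 0.00483), with -0.01 in controls (0.951). The urea carrier Slc14a2 fell at the low dose by 0.19 (0.0425), with -0.18 at the high dose (0.0528) and -0.03 in controls (0.856). Differences between the dose groups in these values were not tested.

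The genes whose array values most resembled those of Slc12a2 were sought among the 12588 other tested genes. The 5 highest correlations over the 72 arrays were with Treml4 (r = 0.775), Adgre4 (0.688), Grk3 (0.647), Tnfrsf1b (0.632) and Hfe (0.616). Treml4 encodes a receptor of myeloid cells, Adgre4 an adhesion receptor of monocytes and macrophages, Grk3 a kinase of G protein-coupled receptors, Tnfrsf1b a receptor of tumour necrosis factor and Hfe a regulator of iron uptake. Adgre4 is also one of the listed monocyte markers. Spearman's rho was 0.748, 0.713, 0.693, 0.641 and 0.542 in that order, and r without the 2 arrays farthest from the median of Slc12a2 was 0.724, 0.739, 0.638, 0.586 and 0.530. With group means removed and the 72 arrays pooled, r was 0.719, 0.641, 0.643, 0.586 and 0.602. The genes were picked by r over the same arrays, which favours such values, and no group was taken alone. These correlations are descriptions of the highest values of many, without a p.

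Treml4 had the highest correlation, so its group means describe that choice. Its mean was 6.21 ± 0.26 (SD, n = 7) in exposure controls, 6.59 ± 0.17 (SD, n = 15) at the low dose and 6.45 ± 0.21 (SD, n = 15) at the high dose. After recovery it was 6.60 ± 0.25 (SD, n = 7), 6.46 ± 0.24 (SD, n = 15) and 6.44 ± 0.20 (SD, n = 13). As with Slc12a2, the exposure controls were the lowest group of Treml4, but its highest group was the recovery controls and that of Slc12a2 low-dose exposure. Of the other genes of the volume pathway, Nfat5 (r = 0.442) and Wnk1 (0.402) varied with Slc12a2 and Wnk4 against it (-0.457), and with group means removed these values were 0.470, 0.462 and -0.479. The remaining 4 had r between -0.125 and 0.267.

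**Figure D5:**
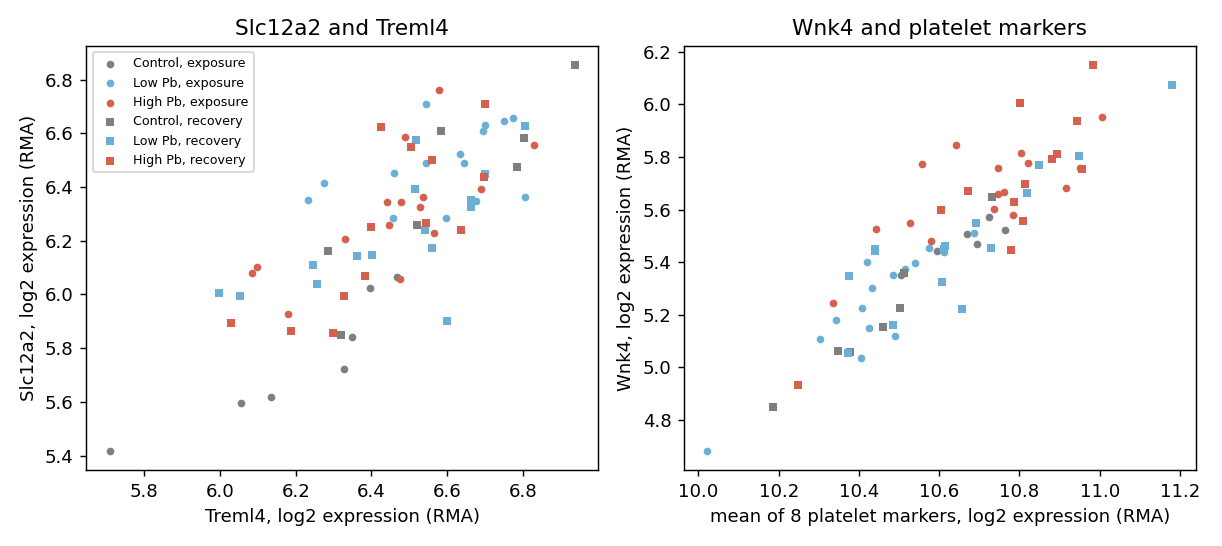
Left, log2 expression of Slc12a2 (vertical) against Treml4 (horizontal); right, log2 expression of Wnk4 (vertical) against the mean of 8 platelet markers (horizontal); each point is 1 of the 72 arrays, coloured by dose, with circles for exposure and squares for recovery. Slc12a2 rises with Treml4 (r = 0.775), and Wnk4 with the platelet mean (r = 0.891).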

How the data were processed

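Gene expression of 72 whole-blood samples was measured on oligonucleotide arrays. Per the submitters' processing notes, the deposited log2 values were normalized by the authors with robust multi-array averaging (RMA); for its software, version and background step the sources used here give nothing. Deposited values ran from 0.410 to 14.1. Per the labels' protocols, globin transcripts were removed before labelling. Groups came from sample titles. Probe sets were named from platform annotation. Group means over all 72 arrays were fitted with limma 3.58.1 (statmod 1.5.0, R 4.3.3; 66 residual degrees of freedom) without further normalization, with Benjamini-Hochberg adjustment over 12589 genes within each comparison. Calls had an adjusted p under 0.05. Differences are log2 with SE. The labels tie no array to a mouse, so p-values reflect the spread among arrays and treat both collections as independent. Since the first collection bled all exposed mice, their recovery arrays came from mice bled before, and these could not be paired. Members and gene lists were chosen with earlier results of these data known. Slc12a2 was picked from the exposure arrays, so only its recovery comparisons were tested. The genes named were the 8 members, up to 3 called genes per related list and comparison by smallest p, and the 5 genes most correlated with Slc12a2. Same-numbered arrays of both collections correlated between -0.458 and 0.507 in their deviations from group means, so the numbers were not taken as pairs. Arrays correlated between 0.958 and 0.995, with 0 identical pairs. Scaling, filters, covariates, weights, blocks, other probe sets and left-out arrays were tried as alternatives. The script was tested on simulated data.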

Additional observations from a re-analysis of the deposited data

How the results depend on the processing

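Slc12a2 stayed short of the threshold in all 3 recovery comparisons under every alternative run, with small differences whose sign could turn. High dose minus control became 0.0265 with the cell marker means as covariates, and high minus low dose became -0.01595 with the 3' minus 5' covariates. Leaving out 1 array gave -0.26 to -0.09 for the low dose, -0.24 to -0.07 for the high dose and -0.01933 to 0.05176 between doses. The number of the 8 members past the threshold between high dose and controls after recovery was 0 to 1 without single arrays. It was 0 instead of 1 with the cell marker means and with the 3' minus 5' covariates. It was also 0 with only both groups fitted and with the replicate number as a replicate block. Of the 7 members other than Slc12a2, the number between the exposure doses was 1 with the cell marker means, and 2 to 3 without single arrays. In controls between the collections it was 1 with the cell marker means or with 18S ribosomal RNA as a covariate, 4 with array weights, and 1 to 4 without single arrays. At the high dose between the collections it was 2 with the cell marker means or 18S ribosomal RNA, and 4 without any single array. The low-dose count stayed between 2 and 4. The cell marker means turned Wnk4 to 0.08538 for the low dose after exposure, to 0.08519 for the control groups between the collections, and to -0.02223 for the high dose between the collections. They also turned its recovery minus exposure dose effects to -0.03565 (low) and -0.1074 (high), from 0.56 and 0.35, and the high-dose rise of Slc6a6 to -0.003102. Quantile normalization turned Wnk4 to -0.04324 at the high dose between the collections, and leaving out 1 array gave -0.008609 to 0.0929. The second probe sets turned Nfat5 to 0.61 (low) and 0.90 (high) between the collections, Slc6a6 to 0.06831 between the exposure doses and -0.46 at the high dose between the collections, and Slc5a3 after recovery to 0.06067 (high minus control), 0.08341 (high minus low) and -0.02274 (low minus control). The last was -0.01336 with array weights, -0.009228 with the replicate number as a replicate block, and -0.03068 to 0.08243 without single arrays. Apart from the Wnk4 recovery result, the block changed no call of a member. Same-numbered arrays of both collections did not deviate together in every pair (lowest correlation -0.458). The falls of Slc5a3 between collections passed under every alternative but its second probe set, where 2 of 3 did not. A further 30 values of members not past the threshold were refitted 1099 times: 79 changed sign and 20 passed, and 2 did both, those of Nfat5 (0.97) and Slc6a6 (-0.43) in controls between the collections by the second probe set. Counts over all genes depended strongly on the fit. For the high dose against recovery controls it was 54 and ranged from 1 to 427, with 3 under the replicate block and 2 to 170 without single arrays. For the exposure doses against controls it was 164 (8 to 1406) at the low and 3 (1 to 480) at the high dose, and between them 2349 (426 to 3139). For controls between the collections it was 4544 (2060 to 6758), and for high against low dose after recovery 0 (0 to 95). The causes were not tested. Precision is limited by the 7 control arrays of each collection, and the probe set of Stk39 exceeded the overall median in only 17 arrays.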
